A study of Mus musculus with 6 samples.

Results

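The myostatin and activin axis was examined in the tibialis anterior (TA), a fast muscle of the lower leg, as 10 genes: the ligands Mstn, Gdf11 and Inhba, the secreted antagonists Fst and Fstl3, the type II receptors Acvr2a and Acvr2b, and the intracellular mediators Smad2, Smad3 and Smad7. The members were taken by gene symbol and matched by gene identifier to the count table, and 10 of the 10 were found among its 45777 genes. The comparison was between 3 male C57BL/6J mice given vehicle (5% DMSO with 5% Tween 80) and 3 given BML-260, a small molecule used to target the phosphatase DUSP22, at 5 mg/kg by intraperitoneal injection every 24 h for 4 weeks, with 1 TA library for each mouse. All 6 mice were aged: the labels give 24 months, the study's methods 24 to 26 months and its results text 27 months, and there was no young group. BML-260 was given to the whole animal, so the muscle is not its only possible site of action, and a TA homogenate holds the RNA of all cell types in the muscle. A smaller number of cells of a type and less RNA per cell cannot be told apart in such libraries.

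Myostatin, encoded by Mstn, is a member of the TGF-beta superfamily that muscle fibers secrete and that restrains muscle mass. Myostatin, the closely related GDF11 and the activins bind the type II receptors ACVR2A and ACVR2B, which recruit a type I receptor that phosphorylates SMAD2 and SMAD3 for entry into the nucleus. Follistatin and follistatin-like 3, encoded by Fst and Fstl3, bind these ligands outside the cell and keep them from their receptors, and SMAD7 is a feedback brake on the receptors. Loss of myostatin or excess follistatin enlarges muscle in mice.

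The count libraries held between 39522890 and 56998875 reads, and 16188 genes, among them all 10 members, had enough counts to be tested. Vehicle replicate 3 stood apart from the other libraries, with a TMM normalization factor of 1.20 against 0.914 to 1.02 in the other 5 and a summed level of the neutrophil markers S100a8, S100a9 and Csf3r of 799 TPM against 6.67 to 164 in the others. The summed level of 6 muscle fiber markers was between 68561 and 90251 TPM in all 6 libraries, so each library held the RNA of muscle fibers. The lowest of these sums was that of vehicle replicate 3. Because of vehicle replicate 3, fold changes are given with and without it where it moved them.

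The stretch of 250 bases just before the start of transcription is shown for the leading ligand Mstn and for Gdf11 and Smad3, the pair of members whose counts were most alike over the libraries. The sequences are from RefSeq on GRCm38.p6 and read 5′ to 3′ on the strand of the gene. E-boxes, the letters CANNTG that basic helix-loop-helix factors such as MyoD bind, are in capitals. The Mstn stretch is chr1:53061390-53061639 on the plus strand, the Gdf11 stretch is chr10:128891719-128891968 on the minus strand, and the Smad3 stretch is chr9:63757995-63758244 on the minus strand.
Mstn: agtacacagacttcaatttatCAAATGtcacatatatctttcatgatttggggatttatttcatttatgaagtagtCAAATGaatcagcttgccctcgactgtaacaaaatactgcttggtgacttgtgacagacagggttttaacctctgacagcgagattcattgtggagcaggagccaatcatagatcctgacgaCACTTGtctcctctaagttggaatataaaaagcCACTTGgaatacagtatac
Gdf11: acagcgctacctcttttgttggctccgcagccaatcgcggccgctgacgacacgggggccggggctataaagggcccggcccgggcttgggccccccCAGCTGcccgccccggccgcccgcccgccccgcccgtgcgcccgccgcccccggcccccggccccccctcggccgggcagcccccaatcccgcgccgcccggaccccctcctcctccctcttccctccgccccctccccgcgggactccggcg
Smad3: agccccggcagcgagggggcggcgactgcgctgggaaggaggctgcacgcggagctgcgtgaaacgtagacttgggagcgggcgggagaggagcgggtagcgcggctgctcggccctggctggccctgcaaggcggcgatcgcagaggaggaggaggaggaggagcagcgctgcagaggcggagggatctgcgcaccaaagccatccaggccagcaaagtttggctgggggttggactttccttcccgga
The Mstn stretch held 4 E-boxes, the Gdf11 stretch 1 and the Smad3 stretch 0. Windows were found for 7 of the 10 members, not for Fst, Smad2 or Smad7. Of 32851 promoter windows of this length, 66.2% held at least 1 E-box. The letters CAGAC, bound by SMAD3 and searched on both strands, occurred 2 times before Mstn and not in the stretches of Gdf11 or Smad3, and 42.2% of all windows held them. GTAAACA, a core bound by FOXO factors and also searched on both strands, was in none of these 3 stretches, and 3.17% of all windows held it. No motif overlapped another in the 3 stretches. A match of letters is a description and does not show a bound site.

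Levels were compared between genes on the TPM scale only, which is scaled for transcript length. Mstn was at a median of 33.6 TPM over the 6 libraries, Smad3 at 28.8, Acvr2a at 14.7, Acvr2b at 5.67, Smad2 at 3.94, Gdf11 at 3.20, Smad7 at 3.11, Fst at 1.43, Fstl3 at 0.729 and Inhba at 0.244. The ligands were therefore at both ends of the order, Mstn with a median rank of 2048.5 and Inhba with a median rank of 14851 among the 16800 genes with a TPM. Acvr2a was above Acvr2b, and Fstl3 above Inhba, in 6 of 6 libraries with no overlap of their TPM. Acvr2b was above Smad2 in 6 of 6 libraries, although the ranges of their TPM overlapped. The other neighbours in the order changed places in at least 1 library: Mstn was above Smad3 in 3 of 6, and Gdf11 above Smad7 in 3 of 6. Among the members, TPM varied most for Fst, by 8.89-fold between its highest and lowest library, and least for Acvr2b, which stayed between 4.87 and 6.32 TPM.

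**Figure D1:**
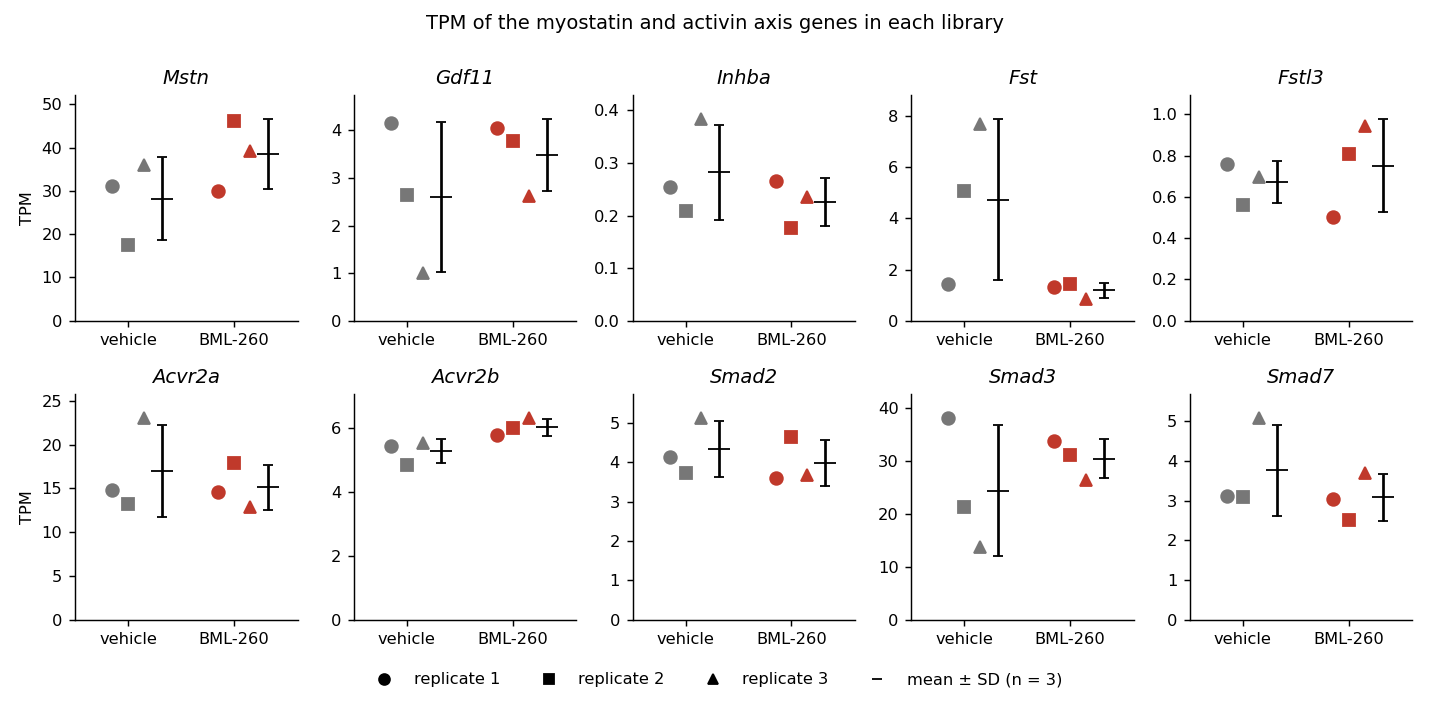
TPM of the 10 genes in each library, 1 panel for each gene with its own axis from 0. Points are libraries (vehicle in grey, BML-260 in red, the shape giving the replicate), and bars are the mean ± SD of 3 libraries. Fst was at 1.43 to 7.70 TPM with vehicle and 0.866 to 1.42 with BML-260, and Acvr2b was the other gene with no overlap of TPM between the groups.

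The comparison of BML-260 with vehicle addressed which genes of the TA respond to BML-260 in aged mice. Of the 10 members, Mstn was higher and Fst lower at the threshold used here, a 1.3-fold or larger difference and a p below 0.05 before adjustment, and the other 8 did not pass. Genes past it are named called. It was passed by 5.75% of all tested genes, 0.896% toward higher and 4.86% toward lower counts. No member had an adjusted p under 0.05 in edgeR's quasi-likelihood fit after Benjamini-Hochberg correction over the 16188 genes, nor did any other gene. At a p below 0.05 before adjustment there were 966 genes (5.97%), 2 members among them, and DESeq2 gave 95 genes an adjusted p under 0.05. Estimates were above 0 for 7 members and below 0 for 3, where 49.5% of all tested genes were above 0, and the signs of Inhba, Acvr2a, Smad2 and Smad7, all close to 0, changed under at least 1 alternative. The median log2 fold change was 0.15 over the members and -0.0039 over all tested genes. Normalized counts of the groups did not overlap for Mstn and Acvr2b, both higher with BML-260, where 5.43% of all tested genes did not overlap in that direction and 6.7% in the other.

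Mstn (gene identifier 17700, chr1:53061640-53068079, plus strand, GRCm38) was the most abundant ligand. Its normalized counts were 2387, 1398 and 1989 in vehicle replicates 1, 2 and 3 and 2529, 3437 and 2929 in BML-260 replicates 1, 2 and 3. The 3 BML-260 libraries were all above the 3 vehicle libraries, and the lowest value was that of vehicle replicate 2. Vehicle libraries averaged 1925 ± 498 and BML-260 libraries 2965 ± 455 (SD, n = 3 each). The fold change was 1.54 (95% interval 1.10 to 2.16), or 0.62 on the log2 scale with a standard error of 0.21. Its adjusted p was 0.779 in edgeR's quasi-likelihood fit.

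On the TPM scale Mstn was less clearly separated. It was at 31.2, 17.4 and 36.0 TPM in the vehicle libraries and at 30.1, 46.1 and 39.3 TPM in the BML-260 libraries, so the groups overlapped, with vehicle replicates 1 and 3 above BML-260 replicate 1. The ratio of the means was 1.36, and the 2-sided exact permutation test over the 10 ways to divide the libraries gave p = 0.3, where the smallest p possible is 0.1. Without vehicle replicate 2 the log2 fold change of the counts was 0.44, and without BML-260 replicate 2 it was 0.51. Neither passed the threshold, so the call rested on each of these libraries. The apeglm shrinkage of DESeq2 brought the estimate from 0.62 to 0.0033. Without vehicle replicate 3 the log2 fold change was 0.64.

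Gdf11 (14561, chr10:128882295-128891718, minus strand), whose mature protein is very like myostatin, had normalized counts of 688, 456 and 120 in vehicle replicates 1, 2 and 3 and of 735, 606 and 423 in BML-260 replicates 1, 2 and 3. Vehicle replicate 3 was far below the other 5 libraries, which overlapped between the groups. BML-260 over vehicle was 1.39-fold, with a 95% interval of 0.612 to 3.17 (adjusted p = 0.825, edgeR). Without vehicle replicate 3 the log2 fold change went from 0.48 to 0.030, and without vehicle replicate 1 to 1.04 (adjusted p = 0.420, edgeR), which did not pass the threshold. The longest run of identical bases between Mstn and Gdf11 transcripts was 12 bases.

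Inhba (16323, chr13:16011851-16031621, plus strand), which encodes the subunit of activin A, was near the lower end of what was measured, with 68 to 135 raw reads in a library. Normalized counts were 93.4, 87.7 and 101 with vehicle and 116, 68.0 and 91.6 with BML-260. The BML-260 libraries lay on both sides of the vehicle libraries. The estimate was 0.975-fold with a 95% interval of 0.634 to 1.50 (adjusted p = 0.976, edgeR). An antisense gene and a pseudogene overlap it on the opposite strand, by 6240 and 11573 bases, and whether the counting used strand is not given in the sources used here.

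Fst (14313, chr13:114452290-114458951, minus strand), the gene of follistatin, showed the largest difference among the members. Normalized counts were 110, 400 and 415 in vehicle replicates 1, 2 and 3 and 111, 101 and 63.5 in BML-260 replicates 1, 2 and 3. Vehicle replicates 2 and 3 were above all other libraries, while vehicle replicate 1 was at the level of BML-260 replicate 1, so the groups overlapped by that 1 pair. Vehicle libraries averaged 308 ± 172 and BML-260 libraries 91.7 ± 24.9 (SD, n = 3 each). The log2 fold change was -1.74 with a standard error of 0.47, a fold change of 0.298 (95% interval 0.141 to 0.634), and the adjusted p was 0.655 in edgeR's quasi-likelihood fit. DESeq2's Wald test gave -1.75 on the log2 scale with an adjusted p of 0.0332. An antisense gene overlaps 289 bases of its locus.

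The TPM of Fst were 1.43, 5.08 and 7.70 with vehicle and 1.31, 1.42 and 0.866 with BML-260. On this scale the groups did not overlap, though vehicle replicate 1 was barely above BML-260 replicate 2. The exact permutation test gave p = 0.1, the smallest possible. The direction of the counts did not depend on 1 library: the log2 fold change was between -2.15 (without vehicle replicate 1) and -1.46 (without vehicle replicate 3) when each library was left out in turn, and Fst passed the threshold each time.

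Markers of denervated fibers were also lower with BML-260. The summed TPM of Chrna1, the acetylcholine receptor subunit that spreads over a fiber that has lost its nerve, Ncam1 and Runx1 was 10.3, 29.4 and 28.2 in vehicle replicates 1, 2 and 3 and 5.13, 5.86 and 7.18 in the BML-260 libraries, and 3 of the 3 genes were called lower. Vehicle replicates 2 and 3 were thus the highest for these markers and for Fst. Of all tested genes, 4.86% were called lower. The denervation and regeneration markers were named after their values were seen, so their counts are a description and not a test. Of 6 markers of satellite cells and regenerating fibers, Myod1, Myog and Myh3 were called lower, at -0.47, -1.91 and -1.66 on the log2 scale. Pax7, Myf5 and Myh8 were not called, at 0.018, -0.20 and 0.17. The summed TPM of the 6 was 133 to 217 with vehicle and 132 to 190 with BML-260, of which Myh8 alone was 101 to 164 TPM over the 6 libraries. Macrophage markers (4 of 5 called lower) were at a summed 30.1, 23.6 and 90.3 TPM with vehicle and 19.0 to 25.0 with BML-260. Neutrophil markers (3 of 3 called lower) were at a summed 164, 23.6 and 799 TPM with vehicle and 6.67 to 11.9 with BML-260. None of 5 fibroblast, 3 endothelial, 3 adipocyte or 3 Schwann cell markers was called. No listed marker was at 0 in all libraries. Chrng, also on the list of 4 denervation markers, was not used here. The part of these cells in the result was not tested.

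Fstl3 (83554, chr10:79777272-79782630, plus strand), the other antagonist, did not show the difference of Fst. Its raw counts were low, at 26 to 45 reads in a library. Normalized counts were 42.9, 33.0 and 28.4 with vehicle and 31.1, 44.0 and 51.3 with BML-260, with overlap. Counts were 1.21-fold higher on average, with a 95% interval of 0.673 to 2.16 (adjusted p = 0.856, edgeR). It shares 1157 bases of its locus with Prss57 on the opposite strand. Fst and Fstl3 share a run of at most 12 bases between their transcripts.

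The summed TPM of the antagonists was set against that of the ligands in each library. The ratio of Fst plus Fstl3 to Mstn plus Gdf11 plus Inhba was 0.0616, 0.279 and 0.225 in vehicle replicates 1, 2 and 3 and 0.0528, 0.0444 and 0.0430 in BML-260 replicates 1, 2 and 3. Vehicle libraries averaged 0.188 ± 0.113 and BML-260 libraries 0.0467 ± 0.00528 (SD, n = 3 each), with no overlap and with vehicle replicate 1 nearest to the BML-260 libraries. The ratio is a description of transcript levels, and no test was run on it. It contains the TPM of Fst and Mstn, the called members, so it is not a result separate from theirs. Fst was the larger antagonist in all libraries but BML-260 replicate 3, where Fstl3 was at 0.944 TPM and Fst at 0.866 TPM. The ratio of Mstn to Gdf11 was 7.49, 6.61 and 35.7 with vehicle and 7.42, 12.2 and 15.0 with BML-260, so that vehicle replicate 3 alone set the mean of its group.

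**Figure D2:**
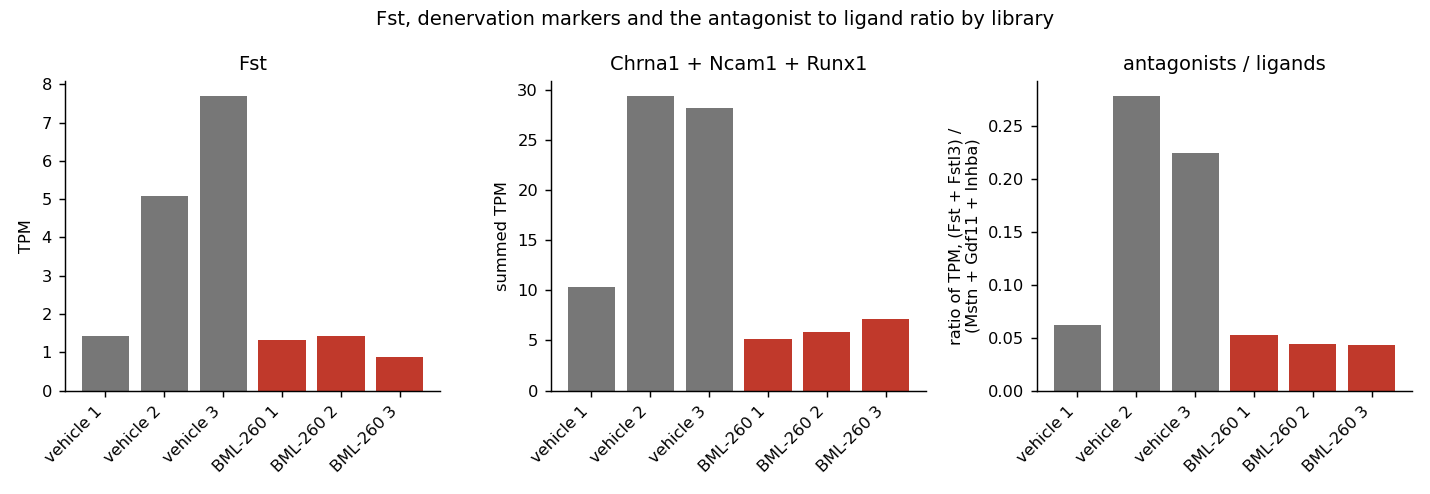
Fst in TPM (left), the summed TPM of Chrna1, Ncam1 and Runx1 (middle) and the ratio of antagonist to ligand TPM (right), as 1 bar for each library, with vehicle in grey and BML-260 in red and each axis from 0. Vehicle replicates 2 and 3 were the highest libraries in all 3 panels, and vehicle replicate 1 was nearer to the BML-260 libraries. The ratio of the right panel contains the Fst values of the left panel, so these panels are not separate results. The markers of the middle panel were named after their values were seen.

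Neither type II receptor passed the threshold with all 6 libraries. Acvr2b (11481, chr9:119402118-119434995, plus strand), the receptor that myostatin prefers, had normalized counts of 1701, 1605 and 1214 with vehicle and 1971, 1837 and 1861 with BML-260. The 3 BML-260 libraries were above the 3 vehicle libraries. The fold change was 1.25 with a 95% interval of 0.969 to 1.62 (adjusted p = 0.788, edgeR), which did not pass the threshold. Its TPM were 5.45, 4.87 and 5.55 with vehicle and 5.80, 6.00 and 6.32 with BML-260, also with no overlap (exact permutation p = 0.1). Vehicle replicate 3 was the lowest in counts, and without it the log2 fold change of 0.32 became 0.19. Without vehicle replicate 1 it was 0.42 and passed the threshold, with an adjusted p of 0.356 by edgeR.

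Acvr2a (11480, chr2:48814109-48903269, plus strand), which binds the same ligands, had normalized counts of 2384, 2234 and 2670 with vehicle and 2577, 2806 and 2024 with BML-260. The BML-260 libraries held both the highest and the lowest value. The estimate was 1.01-fold with a 95% interval of 0.788 to 1.31 (adjusted p = 0.977, edgeR). Its sign depended on the scale, at 0.020 on the log2 scale for counts and -0.13 for log2(TPM + 1), where the median of all genes was shifted by -0.098. The ratio of Acvr2a to Acvr2b TPM was 2.72, 2.72 and 4.14 with vehicle and 2.52, 2.99 and 2.04 with BML-260, with overlap. Antisense or neighbouring genes overlap Acvr2a by 446 bases and Acvr2b by 3909 bases on the opposite strand.

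None of the 3 Smads passed the threshold with all 6 libraries. Smad3 (17127, chr9:63646767-63757994, minus strand), a mediator of muscle loss under myostatin and activin, had normalized counts of 4813, 2839 and 1418 with vehicle and 4646, 3806 and 3299 with BML-260. The vehicle libraries spanned the BML-260 libraries, with vehicle replicate 3 the lowest. BML-260 over vehicle was 1.29-fold with a 95% interval of 0.706 to 2.36 (adjusted p = 0.820, edgeR). Leaving out vehicle replicate 3 took the log2 fold change from 0.37 to 0.026, and leaving out vehicle replicate 1 took it to 0.88, which passed the threshold with an adjusted p of 0.316 by edgeR.

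Smad2 (17126), the other receptor-activated mediator, was among the steadiest members, with normalized counts of 1027, 982 and 915 with vehicle and 975, 1129 and 898 with BML-260. The groups overlapped, with the highest and the lowest value both in the BML-260 group. The fold change was 1.02 with a 95% interval of 0.820 to 1.28 (adjusted p = 0.952, edgeR), so a rise of more than 1.28-fold lay outside the interval. Smad7 (17131), the inhibitory Smad, had 373, 407 and 442 normalized counts with vehicle and 414, 308 and 455 with BML-260, with overlap. Its fold change was 0.962 with a 95% interval of 0.716 to 1.29 (adjusted p = 0.943, edgeR). The longest shared run of Smad2 and Smad3 transcripts was 23 bases.

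**Figure D3:**
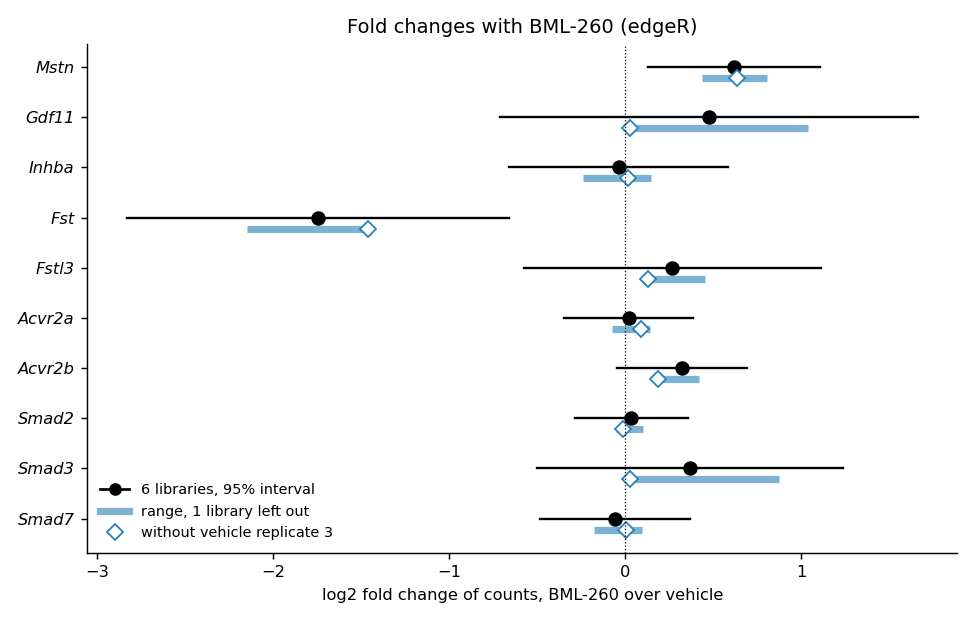
Log2 fold changes of counts for the 10 genes, BML-260 over vehicle. Black points and lines are the edgeR estimates from 6 libraries with their 95% intervals, blue bars span the estimates with each library left out in turn, and open diamonds leave out vehicle replicate 3. The interval excluded 0 for Mstn (0.62) and Fst (-1.74), and Gdf11 and Smad3 moved to 0.030 and 0.026 without vehicle replicate 3.

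The members were then compared with each other over the 6 libraries by log2 CPM, as a description. Gdf11 and Smad3 were the most alike pair, with Pearson's r of 0.980 and Spearman's rho of 0.886 over 6 libraries. With the 2 libraries farthest from the median left out, r was 0.905, and without vehicle replicate 3 it was 0.916. Acvr2b was next most like Gdf11, with r of 0.912. All 3 were at their lowest in vehicle replicate 3. Mstn was most like Fstl3 (r of 0.625) and least like Fst (r of -0.860, rho of -0.829). Both Mstn and Fst passed the threshold between the groups in opposite directions, so their r includes that difference. Smad2 and Smad7 ran opposite to each other (r of -0.974), over a range of only 0.31 on the log2 scale for Smad2. Inhba and Smad7 were each other's most alike member (r of 0.751), Acvr2a was most like Smad2 (r of 0.516), Smad2 most like Gdf11 (r of 0.599), and Fst most like Smad7 (r of 0.220). These 6 points share the normalization of their libraries and the 2 groups. Mstn was also set against the other tested genes, and those without a curated name, such as Gm and Rik symbols, were passed over. The counts most like those of Mstn were then those of Gpr107, Cenpl and Mrps18b (r of 0.994, 0.987 and 0.983). The least like were those of Dll1, Cyyr1 and Tanc2 (r of -0.994, -0.988 and -0.987). These are the extremes of many genes over 6 points.

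A wider list of 40 genes of the same pathway was then described, of which 39 were tested and Ltbp2 was not used here. No gene of the wider list was called higher and 7 were called lower, where 4.86% of all tested genes were called lower. Estimates were above 0 for 19 genes and below 0 for 20, with a median log2 fold change of -0.014. Counts of the groups did not overlap for 6 of the 39, and did not overlap for 12.1% of all tested genes in either direction.

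Of the 5 other ligands, Inhbb, the subunit of activin B, was called lower, at a log2 fold change of -1.84 with a standard error of 0.62 (adjusted p = 0.754, edgeR), and the median of the 5 was 0.0056. Its TPM was 3.96 in vehicle replicate 3 and 0.307 to 0.852 in the other 5 libraries. Without vehicle replicate 3 the log2 fold change was -0.76 and did not pass.

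None of the 10 extracellular binding proteins and proteases, which include the myostatin-binding Wfikkn1 and Wfikkn2 and the activating protease Furin, was called, and their median was 0.0084. The smallest p was that of Fstl1 (log2 fold change -0.49, adjusted p = 0.788, edgeR). Among 6 other receptors and co-receptors the median was -0.42, and Tgfbr3, the co-receptor betaglycan, was called lower at -0.50 (adjusted p = 0.788, edgeR). Without vehicle replicate 3 the median of these receptors was -0.064, and Tgfbr3 was at -0.26 and did not pass. Of 11 intracellular partners and brakes, Tgif1, a corepressor of Smad-dependent transcription, was called lower at -1.30 (adjusted p = 0.788, edgeR), with 22.2 TPM in vehicle replicate 3 and 2.05 to 4.56 in the others. The median of the 11 was 0.12. Without vehicle replicate 3 Tgif1 was at -0.35 and did not pass.

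Of 7 genes known as targets of SMAD2 and SMAD3, 6 had estimates below 0 and 4 were called lower, with a median of -0.43. Cdkn1a, the cell cycle inhibitor p21, was at 5.66, 22.1 and 39.0 TPM in vehicle replicates 1, 2 and 3 and at 1.74, 3.47 and 4.93 TPM in BML-260 replicates 1, 2 and 3. The groups did not overlap. Its log2 fold change was -2.50 with a standard error of 0.57 (adjusted p = 0.598, edgeR). Timp1, an inhibitor of matrix metalloproteinases, was called at -2.05 (adjusted p = 0.699, edgeR), Ccn2, a matricellular growth factor, at -0.87 and the collagen gene Col1a1 at -0.43 (both with adjusted p = 0.788, edgeR).

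Vehicle replicate 3 was the highest library for each of the 7 calls of the wider list. Timp1 was at 7.81 TPM there and at 0.446 to 1.52 in the other libraries, and Ccn2 at 31.8 TPM there and at 7.26 to 9.21 in the others. Without that library the median of the 7 targets was -0.28, and of the 7 calls of the wider list those of Cdkn1a (-2.10) and Timp1 (-1.11) remained. The neutrophil and macrophage markers given above were also highest in that library. Adipocyte markers summed to 26.4 TPM there and to 1.75 to 3.37 TPM in the others. Schwann cell markers summed to 25.8 TPM there and to 4.46 to 8.45 TPM in the others. Summed satellite cell and endothelial markers were highest there by less, at 217 against 132 to 198 TPM and 56.7 against 39.0 to 50.8 TPM. Of the endothelial markers only Pecam1 was highest there, at 36.6 TPM, while Kdr was at its lowest, at 5.07 TPM. Of the satellite cell and regeneration markers Myf5, Myod1, Myog and Myh3 were highest there, and Pax7 and Myh8 were not. Summed fibroblast, denervation and muscle fiber markers were not highest there, and the muscle fiber sum was lowest there. The fibroblast markers Pdgfra (22.1 TPM), Col1a2 (35.1 TPM) and Pi16 (11.9 TPM) were highest there, and Lum and Col3a1 were not. Runx1 and Tnnt3 were also highest there, and the other denervation and muscle fiber markers were not. The part of these cells in the calls of the wider list was not tested.

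**Figure D4:**
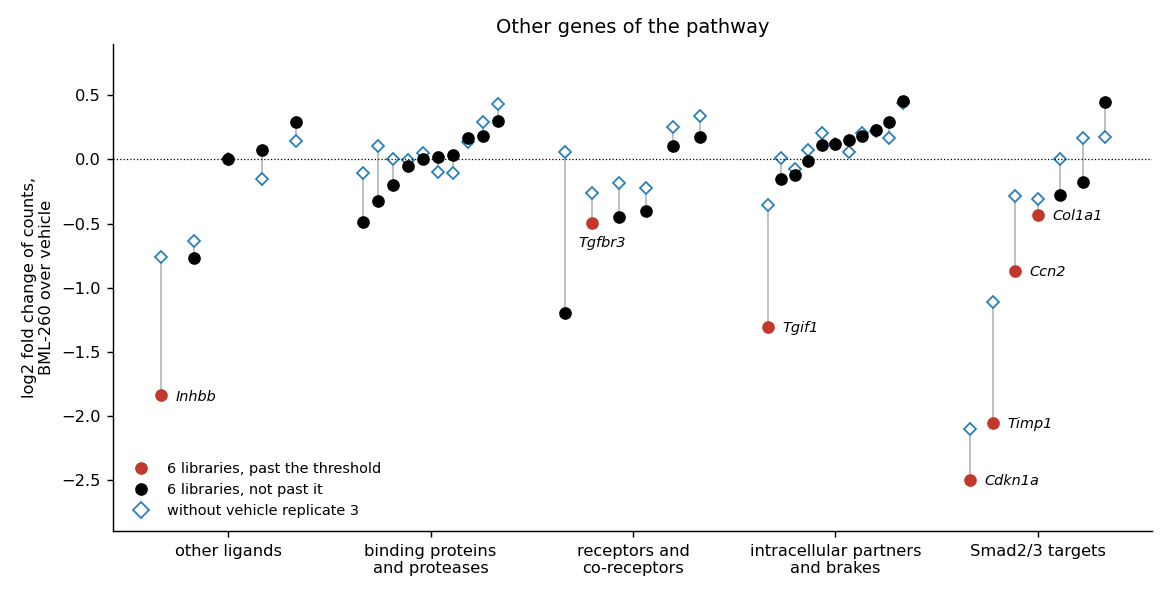
Log2 fold changes of counts for the 39 other genes of the pathway, BML-260 over vehicle, grouped by role. Filled points are estimates from 6 libraries (red where past the threshold), and open diamonds, joined to them by a line, leave out vehicle replicate 3. The 7 red points are all below 0, and without vehicle replicate 3 Cdkn1a and Timp1 remained past the threshold.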

How the data were processed

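RNA was sequenced from the TA muscle of 3 vehicle and 3 BML-260 mice with a stranded total RNA kit. The submitters' processing notes name StringTie 2.1.3b, Bowtie2 2.3.4.1, Trimmomatic 0.38, HISAT2 2.1.0 and mm10; the annotation and the rules for strand and shared reads are not given in the sources used here. The authors deposited raw counts per gene for all libraries, not normalized. The authors also deposited TPM, scaled for transcript length and library total, for 16800 genes.

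The fit was made with edgeR 4.0.16 in R 4.3.3: filterByExpr (16188 genes, 99.9% of counts), TMM, and the quasi-likelihood F-test of BML-260 against vehicle, with Benjamini-Hochberg adjustment over all tested genes. A gene was called at a 1.3-fold or larger difference and a p below 0.05 before adjustment. DESeq2 1.42.0 size factors gave the normalized counts, and 95% intervals and standard errors are from the edgeR fit. The labels give the libraries as separate samples and not their preparation, so p-values measure the spread between these libraries. For single TPM values, exact permutation tests ran over the 10 ways to divide the libraries. The tests were also run on counts simulated from the fitted means and dispersions. That simulation had no outlying library, so it cannot speak to results that rest on vehicle replicate 3.

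The members, the wider list and the marker lists were chosen with earlier results of these data known. Named genes are the members, the wider genes called or with the smallest p in their role, the genes most alike, and the markers; the denervation and regeneration markers were named after their values were seen. The alternatives were upper quartile and RLE factors, a minimum of 10 counts per library or no filter, each library left out, a block on the replicate number, the DESeq2 Wald test, apeglm 1.24.0, voom with quality weights in limma 3.58.1, and limma-trend on log2(TPM + 1) or log2(TPM + 0.1). Positions are from GENCODE on GRCm38, and promoters from RefSeq on GRCm38.p6. Figures were drawn with matplotlib 3.10.9.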

Additional observations from a re-analysis of the deposited data

How the results depend on the processing

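Fst kept its direction and its side of the threshold in every alternative run. Mstn kept its direction but did not pass by limma on log2(TPM + 1) (0.48 on the log2 scale) or log2(TPM + 0.1) (0.49), nor after apeglm shrinkage (0.0033), and it ranged from 0.44 to 0.81 with 1 library left out. Members called, 2 in all, ranged from 1 to 4 with 1 library left out (1 without vehicle replicate 2 or BML-260 replicate 2, 4 without vehicle replicate 1) and were 1 and 1 on the TPM scales with a pseudocount of 1 and 0.1. Estimates near 0 changed sign: Inhba was 0.023 by voom with quality weights (-0.24 to 0.15 with 1 library left out); Acvr2a was -0.0026 with upper quartile normalization and -0.13 and -0.14 on the TPM scales (-0.076 to 0.14); Smad2 was -0.0075 by voom and -0.097 and -0.12 on the TPM scales (-0.054 to 0.10); and Smad7 ranged from -0.18 to 0.097. On the TPM scales the median of all genes was shifted by -0.098 and -0.14. Acvr2b ranged from 0.19 to 0.42, Smad3 from 0.026 to 0.88 and Gdf11 from 0.030 to 1.04. The wider list held 7 calls, 2 to 11 with 1 library left out (2 without vehicle replicate 3, 3 without BML-260 replicate 2, 4 without BML-260 replicate 1, 11 without vehicle replicate 1), and 2 by voom with quality weights and by each TPM scale. All genes called were 931, 1416 without a filter, 503 on log2(TPM + 1) and 503 to 2223 with 1 library left out (503 without BML-260 replicate 2, 2223 without vehicle replicate 1). The ratio of mean Mstn to Gdf11 ratios was 0.695 between the groups, 1.63 with medians and 0.534 to 1.64 with 1 library left out (1.64 without vehicle replicate 3). The cause of these differences was not tested.

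Same-numbered libraries deviated together with correlations of 0.162, 0.054 and 0.110, each the highest for its number, a hint from the data and not the design, so the replicate numbers were taken as names only. With a replicate block 1057 genes were called (326 higher and 731 lower, against 145 and 786), 736 of them shared with the 931. Under the block 2 members and 6 genes of the wider list were called, Mstn at 0.64 and Fst at -1.58. Fstl3 and Inhba had the fewest reads, with 95% intervals of 0.673 to 2.16 and 0.634 to 1.50 on the fold scale, and Gdf11, with more reads, had a wider one of 0.612 to 3.17.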
